A study of Macaca fascicularis with 9 samples.

Results

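GIPR, CD274, FAM186A, SGCB, ENSMFAG00000046424 and ENSMFAG00000046427 were followed through the cell types, clusters and animals of a study of MALAT1 knockdown in the monkey brain. They are 6 of the 29128 features counted. They were picked because earlier results on these same data had set them apart in animals given an intrathecal antisense oligonucleotide (ASO) against saline animals (SGCB within cell types only), so that contrast is given here as values, without a test. Where groups are said not to overlap, the share of all features that also do not overlap was not counted. The nuclei came from the thalamus of 9 female cynomolgus monkeys, 3 per group. Ages were not among the labels. The ASO group had 1 intrathecal dose of 4 mg of an ASO against MALAT1. The OTV group had 4 intravenous doses of OTV:MALAT1 at 30 mpk, one every other week, and the saline group had 4 intravenous doses of saline on the same schedule. Animals were sampled 2 weeks after their last dose. No group had an intrathecal injection without the ASO, so in ASO against saline the oligonucleotide, the injection and the dosing schedule cannot be told apart.

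An ASO of this kind pairs with its target RNA and directs its cleavage, and MALAT1, a long noncoding RNA held in the nucleus at very high levels, is a common target for testing delivery. OTV is an antibody-like carrier that binds the transferrin receptor to bring an attached ASO across the blood-brain barrier. GIPR is the receptor for the gut hormone glucose-dependent insulinotropic polypeptide and signals through cyclic AMP. CD274 encodes PD-L1, the ligand of the immune checkpoint receptor PD-1, which interferons induce in many cell types. SGCB encodes beta-sarcoglycan, a subunit of the sarcoglycan complex that sits with dystroglycan and dystrophin in the membrane of muscle and other cells. FAM186A is a protein-coding gene of poorly known function. Both ENSMFAG features carry only an identifier in the files and stay unnamed here.

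The files held 79994 nuclei, which the authors' own annotation divided into 61578 oligodendrocytes, 5727 myeloid cells, 4411 astrocytes, 6233 precursors of oligodendrocytes (OPCs), 1714 neurons and 331 of unknown type. Markers fitted these names: of those present in the files, 4 of 4 oligodendrocyte, 4 of 4 OPC, 4 of 4 myeloid, 5 of 5 astrocyte and 5 of 5 neuron markers were highest in their own type. Libraries held 2956 to 11992 nuclei and 19981249 to 98850459 unique molecular identifiers (UMIs), and saline replicate 3 was the smallest. Saline replicate 3 also had an unlike makeup, with 1074 oligodendrocytes and a summed level of neuron markers of 1609 counts per 1000000 UMIs, against 306 and 469 in the other saline animals. OTV replicate 3 was the shallowest, at a median of 2579 UMIs per nucleus against 4742 to 7791 in the others. MALAT1, the target, made up 6.11%, 6.36% and 5.38% of UMIs in saline replicates 1 to 3, 4.51%, 4.15% and 5.60% in ASO replicates and 3.802%, 3.25% and 3.12% in OTV replicates. ASO replicate 3 thus lay within the saline range over all nuclei. In oligodendrocytes the ASO animals (4.22% to 5.71%) lay below the saline animals (6.42% to 6.87%). In myeloid cells they also lay below the saline animals (means 2.25% and 3.29%). In OPCs and astrocytes all ASO animals lay within the saline range. The means there were 3.70% and 5.76% in ASO animals, against 4.09% and 6.02% in saline animals. Of 79232 distinct cell barcodes, 760 (0.959%) occurred in more than 1 library. The 13 mitochondrially encoded protein genes, a sign of how much cytoplasmic RNA stays with the nuclei, differed more between groups than MALAT1 did. As counts per 1000000 UMIs (CPM), their summed level was 45.2 to 264 in saline animals, against 3.68 to 7.93 for ASO and 545 to 1454 for OTV, and the part of this in the results that follow was not tested.

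GIPR was carried by oligodendrocytes of the ASO animals and by hardly any other nuclei. In oligodendrocytes its level was 51.5, 44.8 and 32.5 CPM in ASO replicates 1 to 3, from 3254, 3924 and 1216 UMIs. The saline animals had 0.69, 1.17 and 0.21 CPM, from 38, 76 and 1 UMIs, and the OTV animals 0.71, 0.92 and 1.18 CPM. Every ASO animal lay above every saline and OTV animal, and the ASO mean was 62.0 times the saline mean. In the other glia of the ASO animals GIPR stayed near 1 CPM. It was 1.11, 1.30 and 0.49 CPM in OPCs, 0.71, 1.06 and 1.15 in myeloid cells, and 0.57, 1.10 and 0.26 in astrocytes, on 1 to 9 UMIs per animal. Those ranges overlapped with the saline values in OPCs (0.15 to 1.08 CPM) and astrocytes (0.39 to 0.64 CPM), and in myeloid cells the saline animals had 0.00 to 0.56 CPM.

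Within the ASO animals the gap between cell types was tested with animal as a block (edgeR quasi-likelihood test, 16830 features, Benjamini-Hochberg adjustment). GIPR was chosen for its level in these animals, where 8394 of its 8445 UMIs were in oligodendrocytes. For GIPR this test is therefore not independent of that choice. GIPR was lower than in oligodendrocytes by 5.59 on the log2 scale in OPCs (log2 difference -5.59, SE 0.33, adjusted p = 1.58e-12). The log2 difference was -5.69 in myeloid cells (SE 0.37, adjusted p = 3.52e-12) and -6.43 in astrocytes (SE 0.39, adjusted p = 1.89e-12). In the saline and OTV animals GIPR had 0 to 10 UMIs per animal in each of these 3 types. On those counts 1 of 6 such differences was called, OPCs of the OTV animals (-3.15, SE 0.88, adjusted p = 0.00434, on 1, 0 and 0 UMIs), and the counts are too low to show whether the groups differ in this. Large gaps between types are common in this test: 55.1% of features were called between OPCs and oligodendrocytes of the ASO animals, 59% between myeloid cells and oligodendrocytes, and 56.8% between astrocytes and oligodendrocytes. Neurons were too few to test, with 18 and 17 nuclei in ASO replicates 1 and 2, and GIPR in the 467 neurons of ASO replicate 3 was 1.79 CPM on 9 UMIs. Over the 3 ASO animals GIPR was at 1.79 to 6.96 CPM in neurons, on 1 to 9 UMIs. In nuclei of unknown type it was at 5.28 to 27.5 CPM, on 1 to 3 UMIs.

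**Figure D1:**
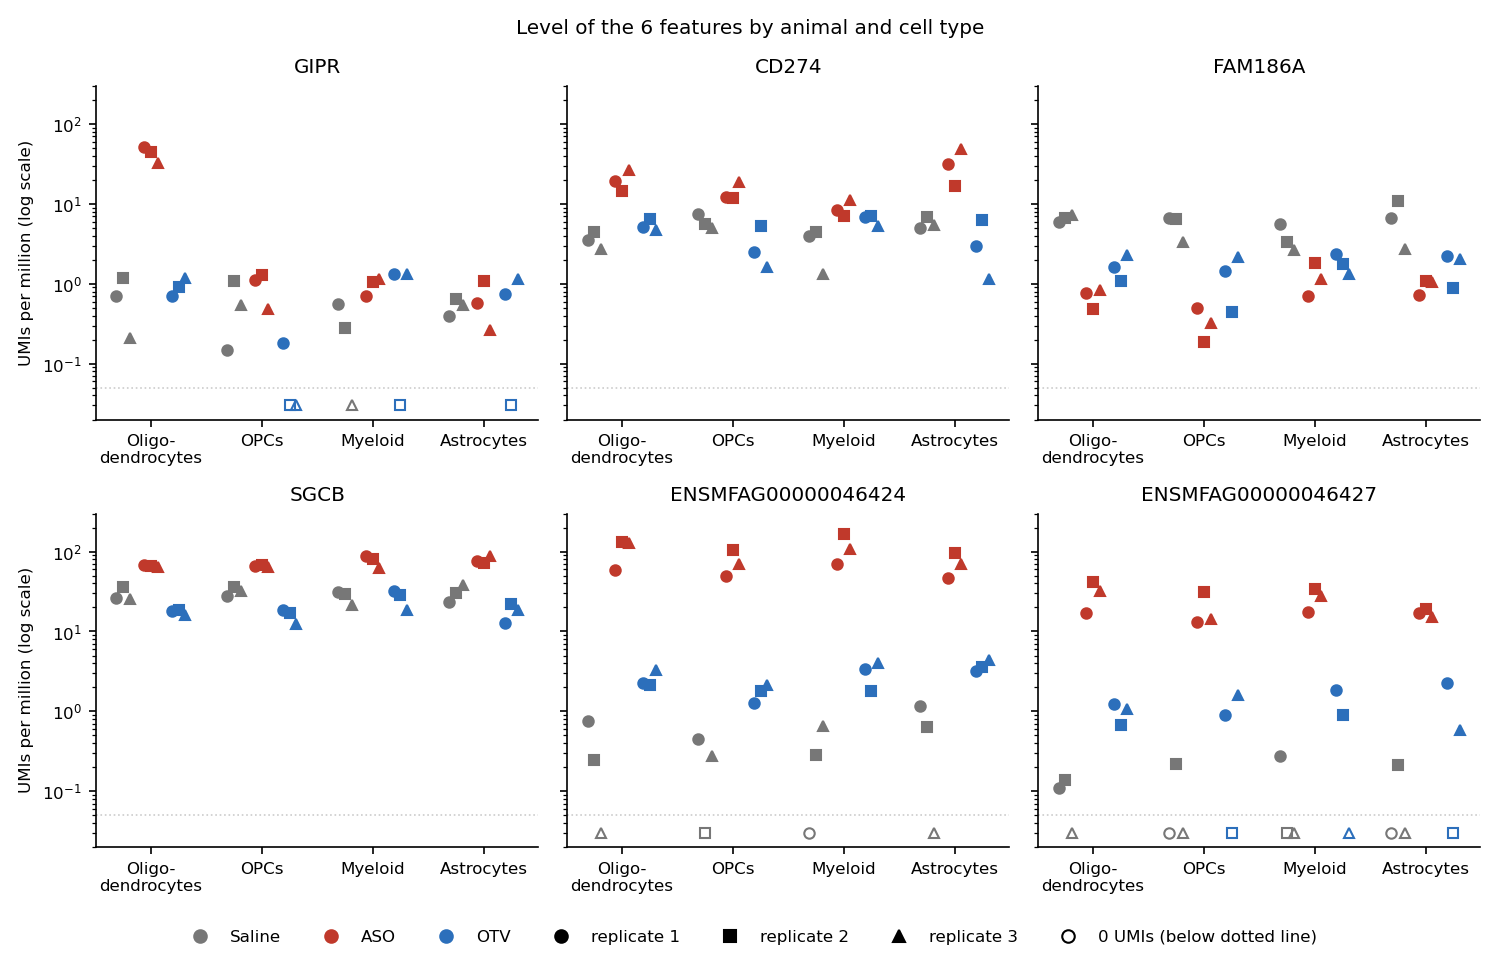
Level of each feature (CPM, log axis) in 4 cell types, 1 symbol per animal, grey for saline, red for ASO and blue for OTV; open symbols below the dotted line are animals with 0 UMIs. GIPR is at 32.5 to 51.5 CPM in ASO oligodendrocytes and at most 1.30 CPM in the other ASO types drawn. For the other 5 features ASO and saline animals do not overlap in any type drawn. The features were chosen from this difference, and the share of all features without overlap was not counted.

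Counted per nucleus, GIPR was found in many ASO oligodendrocytes, though in fewer than an even spread by depth would give. After each nucleus was thinned to 1000 UMIs, 4.14% ± 1.03 of ASO oligodendrocytes carried a GIPR UMI, against 0.0688% ± 0.0604 in saline and 0.123% ± 0.0348 in OTV animals (SD, n = 3 each). Without thinning the shares were 20.9% ± 6.45, 0.454% ± 0.380 and 0.438% ± 0.0751. The unthinned shares in the ASO animals were 24.0%, 25.2% and 13.5%, at a median of 6053, 7812 and 4962 UMIs per nucleus. Had the same GIPR UMIs been spread over the oligodendrocytes in proportion to depth, the shares would have been 27.8%, 30.2% and 15.6%. No oligodendrocyte held more than 7 GIPR UMIs. SGCB came closer to such a spread, with shares of 33.1%, 38.2% and 27.2% where 34.4%, 40.3% and 28.3% would be given. For comparison, among ASO astrocytes, which were deeper (median 7357 to 12280 UMIs), 0.58%, 1.45% and 0.20% of nuclei had a GIPR UMI, and among ASO myeloid cells 0.33%, 0.62% and 0.34%.

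All 7 oligodendrocyte clusters of the authors carried GIPR in all 3 ASO animals, at unequal levels. The mean was 54.7 CPM ± 16.7 in cluster 0, 43.1 ± 10.1 in cluster 1, 48.2 ± 8.78 in cluster 2, 39.4 ± 10.5 in cluster 3 and 48.0 ± 9.98 in cluster 8 (SD, n = 3). It was 21.7 CPM ± 4.94 in cluster 5 and 14.4 ± 4.55 in cluster 10. In each of the 3 animals clusters 5 and 10 were the lowest of the 7. OPC cluster 4, the largest OPC cluster, had 1.1, 1.0 and 0.5 CPM in the same animals. Clusters were made from these same counts, so these levels are a description.

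CD274 was higher in the ASO animals in each glial type. In all nuclei it stood at 19.4, 14.1 and 25.7 CPM in ASO replicates 1 to 3 (1397 to 1573 UMIs), against 4.06, 4.91 and 4.30 CPM in saline (86 to 429 UMIs) and 4.96, 6.08 and 3.98 CPM in OTV animals. The ASO animals lay above all others, at 4.46 times the saline mean. Astrocytes had 31.9, 17.0 and 48.6 CPM in ASO and 5.07, 6.87 and 5.49 CPM in saline animals. Oligodendrocytes had 19.4, 14.5 and 26.4 CPM against 3.54, 4.51 and 2.71 CPM, and the ratio of means was 5.59 in astrocytes and 5.61 in oligodendrocytes. The gap was smaller in OPCs (12.1, 11.9 and 19.0 against 7.41, 5.64 and 4.95 CPM) and in myeloid cells (8.52, 7.13 and 11.1 against 3.92, 4.49 and 1.33 CPM). No ASO animal overlapped with a saline animal in any of these 4 types. Myeloid cells, the immune cells of the tissue, thus had the lowest CD274 level of the 4 types in every ASO animal.

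Against oligodendrocytes of the same ASO animals, CD274 was lower in myeloid cells (log2 difference -1.39, SE 0.22, edgeR adjusted p = 8.68e-06) and in OPCs (-0.60, SE 0.20, adjusted p = 0.0131). It was higher in astrocytes (0.50, SE 0.20, adjusted p = 0.0342). CD274 was chosen for its level in these animals, where 3487 of its 4398 UMIs were in oligodendrocytes. The test is therefore not independent of that choice. Of all features, 59%, 55.1% and 56.8% were called in myeloid cells, OPCs and astrocytes. The astrocyte call was lost without any 1 of ASO replicates 1 to 3 (adjusted p from 0.0514 to 0.366) and with no filter on low counts (0.0885), and the OPC call was lost without ASO replicate 1 (0.0821). In saline animals the order of OPCs and oligodendrocytes was the other way round (OPCs higher by 0.61, SE 0.23, adjusted p = 0.0286, with 53.1% of features called). The difference between these 2 contrasts was not tested. In OTV animals CD274 was lower than in oligodendrocytes in OPCs (-1.04, SE 0.28, edgeR adjusted p = 0.00375, beside 51% of features). It was also lower in astrocytes (-1.12, SE 0.29, adjusted p = 0.00255, beside 52.7%). In myeloid cells it was not called (-0.12, SE 0.28, adjusted p = 0.904, beside 51%). These OTV values rest on 3 to 14 UMIs per animal in OPCs, 4 to 12 in astrocytes and 4 to 26 in myeloid cells.

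CD274 UMIs were found in 8.90%, 8.25% and 9.67% of ASO oligodendrocytes, where an even spread by depth would have given 11.7%, 11.2% and 12.9%. In ASO astrocytes the shares were 20.2%, 15.2% and 24.0%, and an even spread would have given 27.2%, 19.9% and 29.9%. Thinned to 1000 UMIs, 1.88% ± 0.539 of ASO oligodendrocytes carried CD274, against 0.379% ± 0.111 in saline and 0.420% ± 0.217 in OTV animals (SD, n = 3). Among oligodendrocyte clusters its order differed from that of GIPR, most plainly in clusters 5 and 10. Clusters 5 and 10, lowest for GIPR, had 34.1 CPM ± 13.9 and 34.1 ± 5.73, while clusters 0 and 1 had 18.0 ± 6.67 and 13.7 ± 4.56 (SD, n = 3). In every ASO animal clusters 5 and 10 were above clusters 0, 1 and 2 for CD274. In saline and OTV animals, too, mean CD274 was higher in clusters 5 and 10 than in clusters 0 and 1, with 9.18 CPM ± 2.24 and 21.1 ± 14.9 in clusters 5 and 10 and 3.06 ± 0.461 and 1.29 ± 0.561 in clusters 0 and 1 of saline animals, and 10.1 ± 0.364 and 17.0 ± 8.02 against 3.58 ± 1.92 and 2.22 ± 0.959 after OTV. In cluster 10 the ASO animals (27.8 to 38.9 CPM) overlapped with saline (10.1 to 38.1 CPM), where the highest saline value rests on 2 UMIs in 9 nuclei. SGCB in ASO animals ran from 57.9 CPM ± 2.33 in cluster 1 up to 83.2 ± 0.686 in cluster 10.

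**Figure D2:**
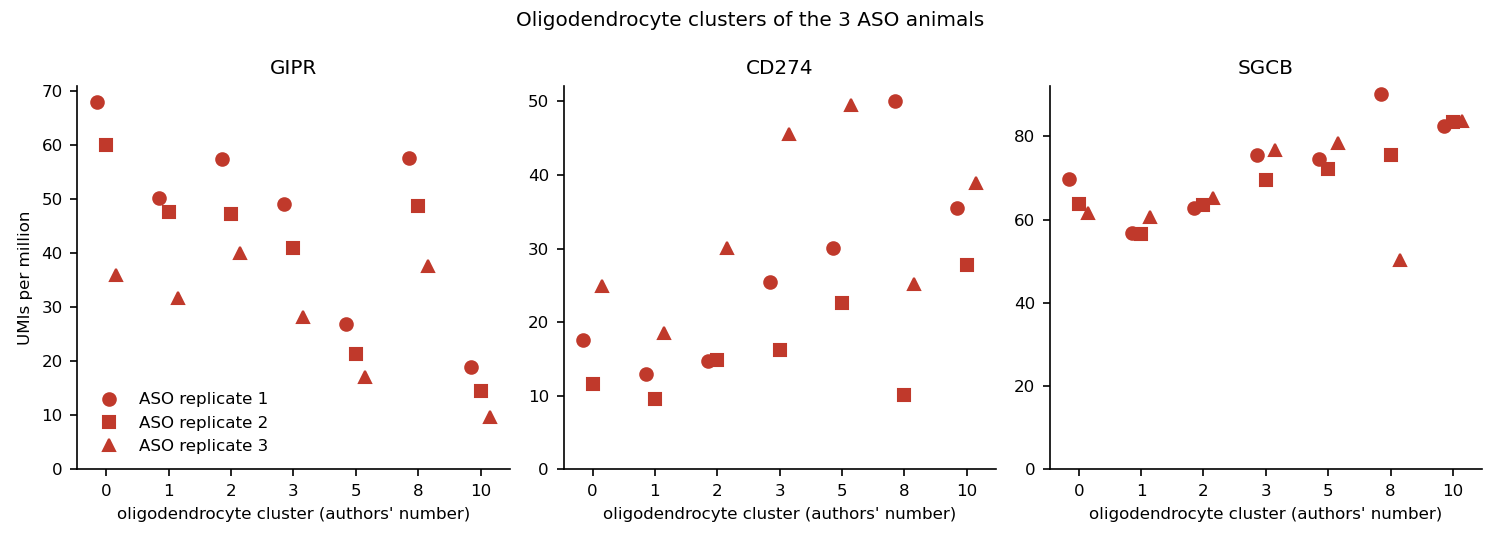
Level of GIPR, CD274 and SGCB (CPM, axes from 0) in the 7 oligodendrocyte clusters, 1 symbol per ASO animal. GIPR is lowest in clusters 5 and 10 in all 3 animals, where CD274 is above its level in clusters 0, 1 and 2.

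SGCB, the membrane complex subunit, differed between groups by less than GIPR and was close to level across types. ASO oligodendrocytes had 67.2, 65.2 and 64.3 CPM, saline oligodendrocytes 26.1, 36.4 and 25.2, and OTV oligodendrocytes 18.3, 18.6 and 16.2. The 3 groups did not overlap, with ASO highest and OTV lowest. The ASO means were 66.0 CPM ± 2.22 in OPCs, 77.9 ± 13.7 in myeloid cells and 78.8 ± 7.58 in astrocytes (SD, n = 3). None of these types passed against oligodendrocytes in the edgeR test (log2 differences -0.10, SE 0.18; 0.02, SE 0.18; and 0.11, SE 0.18; adjusted p = 0.650, 0.953 and 0.649). Thinned to 1000 UMIs, 6.44% ± 0.127 of ASO oligodendrocytes carried SGCB, against 2.73% ± 0.744 in saline and 1.73% ± 0.316 in OTV animals.

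FAM186A was the member that was lower in the ASO animals. In all nuclei it stood at 5.78, 6.90 and 4.45 CPM in saline (89 to 603 UMIs), at 0.73, 0.55 and 0.90 CPM in ASO (50 to 59 UMIs) and at 1.67, 1.07 and 2.21 CPM in OTV animals (24 to 106 UMIs). The 3 groups did not overlap, and the saline mean was 7.89 times the ASO mean. The saline mean was higher than the ASO mean by 9.59 times in oligodendrocytes, 16.4 times in OPCs, 3.13 times in myeloid cells and 7.08 times in astrocytes. ASO values outside oligodendrocytes rest on 1 to 7 UMIs per animal and type. No type passed against oligodendrocytes within the ASO animals (edgeR adjusted p from 0.0987 to 0.858). On these counts the test cannot show whether the types differ in FAM186A. In saline animals FAM186A was lower in myeloid cells than in oligodendrocytes (log2 difference -0.96, SE 0.35, edgeR adjusted p = 0.0235, beside 57.1% of features).

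ENSMFAG00000046424 and ENSMFAG00000046427 were nearly absent from the saline animals and well counted in the ASO animals. In all nuclei ENSMFAG00000046424 had 49, 23 and 2 UMIs in the saline animals (0.67, 0.26 and 0.10 CPM), and 4609, 12852 and 6032 UMIs in the ASO animals (56.8, 130 and 108 CPM). ENSMFAG00000046427 had 7, 14 and 0 UMIs in the saline animals and 1367, 3956 and 1523 in the ASO animals (16.8, 40.0 and 27.4 CPM). For both, ASO replicate 2 was highest and ASO replicate 1 lowest. UMIs of both were found in every glial type, and the share of UMIs from outside the nuclei was not estimated. Among the oligodendrocyte clusters of ASO animals the mean of each was highest in cluster 8. It was 203 CPM ± 102 for ENSMFAG00000046424 and 62.1 ± 24.4 for ENSMFAG00000046427 there (SD, n = 3). Cluster 8 is the oligodendrocyte cluster of low-depth nuclei, and the part of depth in this level was not tested. In OPC cluster 14 and myeloid cluster 7 ENSMFAG00000046424 was at 185 CPM ± 78.4 and 147 ± 54.0. ENSMFAG00000046427 was at 35.2 CPM ± 42.0 and 29.3 ± 8.38 in these 2 clusters. The ASO means of ENSMFAG00000046424 were 106 CPM ± 41.1 in oligodendrocytes, 74.9 ± 28.1 in OPCs, 114 ± 47.6 in myeloid cells and 70.9 ± 24.99 in astrocytes (SD, n = 3).

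The type test within the ASO animals placed both below oligodendrocytes in 2 types. Both were chosen for their level in these animals, where oligodendrocytes held 19936 of 23493 and 5925 of 6846 of their UMIs. The test is therefore not independent of that choice. Of all features, 55.1% were called in OPCs and 56.8% in astrocytes against oligodendrocytes. ENSMFAG00000046424 was lower in OPCs (log2 difference -0.60, SE 0.19, edgeR adjusted p = 0.00902) and in astrocytes (-0.72, SE 0.19, adjusted p = 0.00228). ENSMFAG00000046427 was lower in OPCs (-0.77, SE 0.27, adjusted p = 0.0197) and in astrocytes (-0.87, SE 0.28, adjusted p = 0.0114). Neither passed in myeloid cells (adjusted p = 0.596 and 0.228). Both OPC calls were lost without ASO replicate 3 (0.0750 and 0.137), and the astrocyte call of ENSMFAG00000046427 was lost without ASO replicate 2 (0.0851) or 3 (0.0839). Thinned to 1000 UMIs, 10.5% ± 3.92 of ASO oligodendrocytes carried ENSMFAG00000046424, against 0.0193% ± 0.0242 in saline animals.

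The label of the set as changed after intrathecal ASO only did not hold for 4 of its 6 members, which also differed in the OTV animals. OTV against saline uses the same 3 saline animals as the contrast that chose the members, so agreement in direction is not independent of it. Of all features, 15.7% were called between OTV and saline in all nuclei and 19.2% in oligodendrocytes, against 0.032% and 0.394% between ASO and saline (edgeR, adjusted p under 0.05). In OPCs, myeloid cells and astrocytes the OTV shares were 22.1%, 12% and 15.4%, and the ASO shares 0.262%, 0.197% and 0.0147%. Of the members, 3 of 6 were called in all nuclei and 4 of 6 in oligodendrocytes.

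ENSMFAG00000046424 rose in OTV animals, to 2.31, 2.09 and 3.43 CPM in all nuclei, above all saline animals and far below all ASO animals. The log2 fold change against saline was 2.87 (SE 0.55, edgeR adjusted p = 0.0112), and in oligodendrocytes 2.53 (SE 0.56, adjusted p = 0.0143). Leaving out 1 animal at a time, these values ran from 2.59 to 3.69 and from 2.05 to 3.57, highest without saline replicate 1. ENSMFAG00000046427 rose to 1.31, 0.71 and 0.99 CPM (log2 fold change 3.33, SE 0.60, adjusted p = 0.00877; in oligodendrocytes 3.15, SE 0.51, adjusted p = 0.00331), and the value in all nuclei was 3.94 without saline replicate 2. These rises rest on 47 to 147 and 16 to 83 UMIs per OTV animal. The ASO values in oligodendrocytes were 7.83 (SE 0.61) and 7.95 (SE 0.52). The oligodendrocyte call of ENSMFAG00000046424 was lost without saline replicate 2 (adjusted p = 0.0660). The oligodendrocyte calls of ENSMFAG00000046424 and ENSMFAG00000046427 were both lost after thinning to equal totals (adjusted p = 0.0604 and 0.0758). In OPCs, myeloid cells and astrocytes ENSMFAG00000046424 had 1.25 to 2.14, 1.79 to 3.98 and 3.24 to 4.34 CPM in the OTV animals, on 2 to 15 UMIs per animal and type, and 0 to 6 UMIs in the saline animals. ENSMFAG00000046427 had 0 to 9 UMIs per OTV animal and 0 to 2 per saline animal in these types. In fits that also held the well counted ASO animals, edgeR gave adjusted p = 0.0398, 0.0313 and 0.0169 for ENSMFAG00000046424 and 0.115, 0.0825 and 0.0667 for ENSMFAG00000046427 in OPCs, myeloid cells and astrocytes. On so few UMIs these tests are not taken as a change after OTV in any of the 3 types.

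FAM186A fell in OTV animals by 1.69 on the log2 scale in all nuclei (SE 0.33, edgeR adjusted p = 0.0120) and by 1.92 in oligodendrocytes (SE 0.31, adjusted p = 0.00328). The ASO values were -3.01 (SE 0.35) and -3.30 (SE 0.33). In OPCs it fell by 2.01 (SE 0.49, adjusted p = 0.0135), on 1 to 8 UMIs in the OTV and 12 to 60 in the saline animals. SGCB went opposite ways with the treatments. It fell in OTV oligodendrocytes by 0.68 (SE 0.15, adjusted p = 0.0131), where the ASO value was 1.12 (SE 0.15). In all nuclei its OTV value was -0.53 (SE 0.18) and missed the threshold (edgeR adjusted p = 0.0787), which it passed without saline replicate 3 (-0.67, adjusted p = 0.0328). Leaving out 1 animal at a time, this value ran from -0.67 to -0.33 (adjusted p up to 0.206). In OPCs SGCB fell by 0.92 (SE 0.17, adjusted p = 0.00305), and it was not called in astrocytes (-0.77, SE 0.23, adjusted p = 0.0527) or myeloid cells (-0.06, SE 0.24, adjusted p = 0.913).

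GIPR and CD274 were the members without a call in OTV animals. The GIPR log2 fold change was 0.13 (SE 0.36, edgeR adjusted p = 0.843) in all nuclei and 0.16 (SE 0.38, adjusted p = 0.810) in oligodendrocytes, where the ASO values were 5.37 (SE 0.39) and 5.63 (SE 0.38). The CD274 values were 0.28 (SE 0.23, adjusted p = 0.450) and 0.59 (SE 0.26, adjusted p = 0.147), where the ASO values were 2.13 (SE 0.24) and 2.39 (SE 0.27). In oligodendrocytes the OTV animals had 5.14, 6.41 and 4.68 CPM of CD274, above the 3 saline animals. In astrocytes and OPCs they had 1.16 to 6.21 and 1.60 to 5.33 CPM, which overlapped with saline. In myeloid cells they had 6.81, 7.16 and 5.31 CPM on 4 to 26 UMIs, above the saline animals (1.33 to 4.49 CPM), and the difference was not called (0.85, SE 0.42, adjusted p = 0.218).

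**Figure D3:**
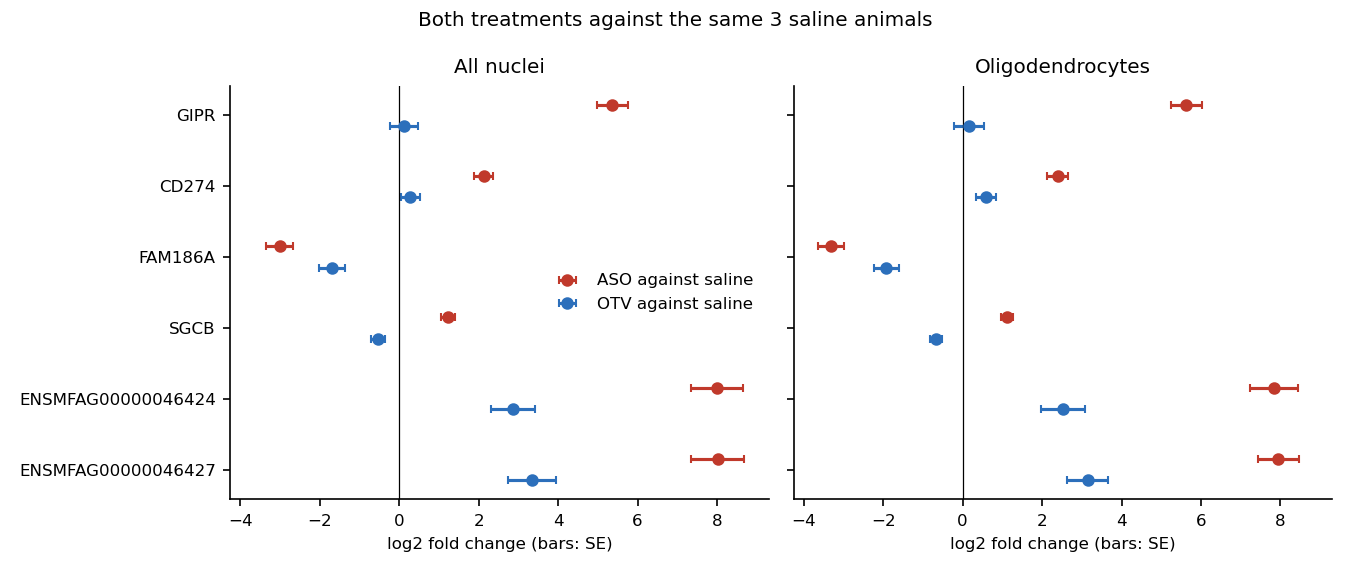
Log2 fold change of each feature against saline for ASO (red) and OTV (blue), in all nuclei and in oligodendrocytes; bars are standard errors and both treatments are set against the same 3 saline animals. Both ENSMFAG features and FAM186A lie on the same side of 0 for both treatments, and SGCB lies on opposite sides. For OTV, GIPR is at 0.13 and 0.16 and CD274 at 0.28 and 0.59, none of them called.

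Whether the members follow the MALAT1 level from nucleus to nucleus was asked within animals. The share of MALAT1 in a nucleus does not tell loss to the ASO apart from other differences between nuclei. Oligodendrocytes of each animal and cluster were divided into 4 bins of equal size by the share of their UMIs that was MALAT1, and CPM was taken over UMIs other than MALAT1. In the ASO animals MALAT1 was 2.55%, 3.27% and 4.29% of UMIs in the lowest bin and 6.72%, 5.34% and 7.35% in the highest. Median depth was close between them (6235 and 5671 UMIs in replicate 1, 7982 and 7436 in replicate 2, 5018 and 4763 in replicate 3).

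No member that was higher in ASO animals was called higher in their oligodendrocytes with least MALAT1. GIPR was at 50.2 CPM in the lowest and 55.3 in the highest bin of ASO replicate 1, 50.0 and 45.4 in replicate 2, and 33.5 and 35.2 in replicate 3. Its log2 difference, lowest against highest bin, was 0.03 (SE 0.08, edgeR adjusted p = 0.931). CD274 was lower where MALAT1 was lowest. It was at 17.7 against 22.0 CPM in replicate 1, 13.05 against 19.6 in replicate 2 and 22.5 against 34.4 in replicate 3. The log2 difference was -0.45 (SE 0.10, adjusted p = 0.00737), in the same direction in 3 of 3 animals. CD274 was the 1 member called, beside 1.91% of the 17186 features tested. Most called features went the same way as CD274: 255 were lower and 73 higher in the lowest bin. On simulated counts this contrast gave more false calls than its threshold allows. The CD274 call was lost without ASO replicate 2 (adjusted p = 0.138), without ASO replicate 3 (0.168) and with bins set within animals without regard to cluster (0.228).

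The other members gave no call. SGCB had 69.6 against 71.6 CPM, 62.6 against 76.3 and 67.3 against 74.6 in the lowest and highest bins of the 3 ASO animals (log2 difference -0.12, SE 0.06, edgeR adjusted p = 0.454), lower with least MALAT1 in each. ENSMFAG00000046424 had 71.1 against 55.0 in ASO replicate 1, and 137 against 141 and 136 against 137 in the others (0.14, SE 0.06, adjusted p = 0.325). ENSMFAG00000046427 had 24.99 against 14.9 in replicate 1, 45.0 against 42.8 and 37.5 against 33.3 (0.34, SE 0.10, adjusted p = 0.0564). ENSMFAG00000046427 was higher in the lowest than in the highest bin in 3 of 3 animals, and ENSMFAG00000046424 in 1 of 3. ENSMFAG00000046427 passed with no filter on low counts (0.34, edgeR adjusted p = 0.0128) and without ASO replicate 2 (0.51, adjusted p = 0.0395). Leaving out 1 ASO animal at a time, its value ran from 0.16 to 0.51 (adjusted p up to 0.497). FAM186A rested on 8 to 14 UMIs per bin (0.29, SE 0.38, adjusted p = 0.817).

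The same contrast in the other groups gave no member call. For GIPR, ENSMFAG00000046424 and ENSMFAG00000046427 the counts were too low for this to show whether they follow MALAT1 there. They had 115, 57 and 15 UMIs over all saline oligodendrocytes and 72, 206 and 92 over all OTV oligodendrocytes, before binning. In saline animals, where 4.02% of features were called, the CD274 log2 difference was -0.26 (SE 0.22, edgeR adjusted p = 0.669), and the lowest adjusted p among members was that of GIPR (0.343). In OTV animals 0.0291% of features were called, and the CD274 difference was 0.26 (SE 0.21, adjusted p = 0.914). The ASO difference minus the saline difference was -0.19 for CD274 (SE 0.24, adjusted p = 1.00), so the slope of CD274 in ASO animals was not shown to differ from that in saline animals. In that comparison 0.186% of features were called. Per animal, the log2 ratio of lowest to highest bin was set across the 3 groups in a two-sided exact permutation test over the 280 partitions, whose smallest possible p is 0.00357, for the 3 members with enough UMIs in every animal. The exact test gave p = 0.214 for CD274, 0.164 for FAM186A and 0.571 for SGCB (0.321, 0.321 and 0.571 after adjustment over the 3).

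**Figure D4:**
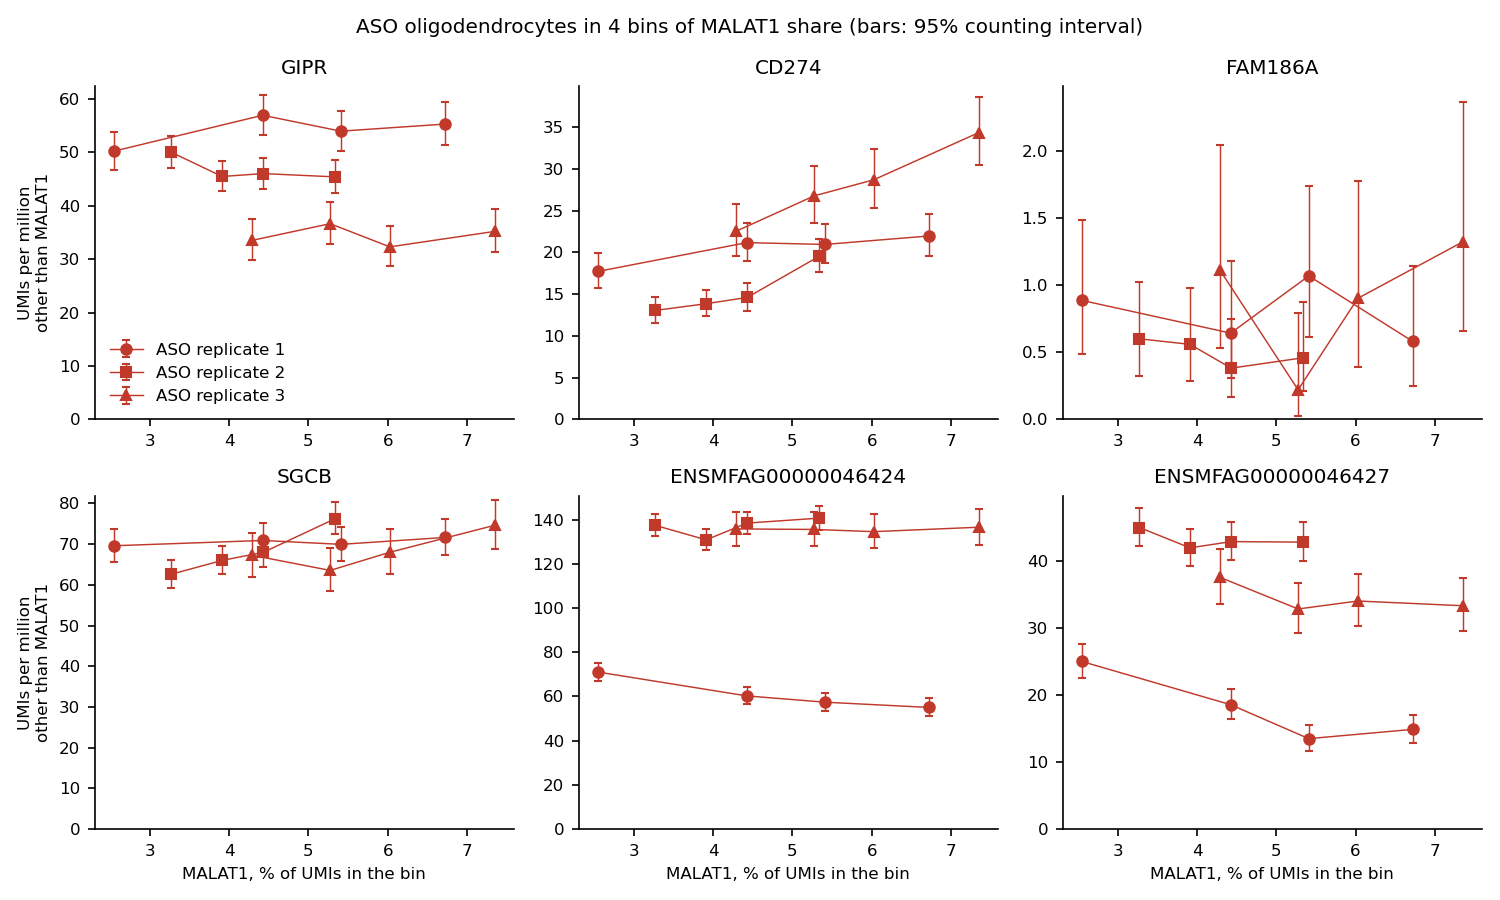
CPM of each feature over UMIs other than MALAT1 (axes from 0) against the MALAT1 share of UMIs, for 4 bins of oligodendrocytes in each ASO animal; bars are 95% exact Poisson intervals and cover counting error only. CD274 is lowest in the bin with least MALAT1 in all 3 animals. SGCB is lower in the lowest than in the highest bin in all 3 animals, and GIPR is higher in 1 and lower in 2.

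Myeloid nuclei of ASO replicate 1 ranged in MALAT1 from 0.29% of UMIs in the lowest bin to 2.61% in the highest (150 nuclei each). SGCB was 90.7 CPM in the lowest bin (exact Poisson interval 70.1 to 115) and 85.0 in the highest (64.2 to 110). ENSMFAG00000046424 was 67.3 (49.8 to 89.0) and 75.9 (56.3 to 100). ENSMFAG00000046427 was 16.5 (8.52 to 28.8) and 21.3 (11.6 to 35.7). These intervals cover counting error in 1 animal, and they overlapped widely for each of these 3 features. The other members and the myeloid nuclei of the other animals are not given here. These values therefore do not show whether the members follow MALAT1 in myeloid cells.

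Across the ASO animals the order of MALAT1 was not shared by all members. ASO replicate 3 kept most MALAT1 (5.60% of UMIs in all nuclei, against 4.51% and 4.15%). It had the lowest GIPR (22.2 CPM) and the highest CD274 (25.7 CPM) of the 3, while the unnamed features were highest in replicate 2. The 3 animals are too few for a correlation.

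Pairs of members were mostly found together in ASO oligodendrocytes about as often as their separate shares would give. Within clusters, at 1000 UMIs per nucleus, GIPR and CD274 met in 18 nuclei where 19.7 were expected from their shares. Both unnamed features met in 130 nuclei where 95.6 were expected, a ratio of 1.36 (1.14 to 1.61, counting error only), above 1 in each of the 3 animals. GIPR and SGCB met in 95 where 74.8 were expected, a ratio of 1.27 (1.03 to 1.55). SGCB and ENSMFAG00000046424 met in 154 where 183 were expected, a ratio of 0.84 (0.71 to 0.98). Nuclei of 1 animal are not independent animals, and no test was made.

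No gene of the pathways around the members was called between ASO and saline in all nuclei. Over all 21854 features 7 (0.032%) were called in that contrast by edgeR and 2079 had an unadjusted p under 0.05. For OTV 15.7% were called. The counts of each list stand beside these shares. On simulated counts the ASO contrast recovered 0% of 2-fold changes, so 0 calls in a list do not show that its genes were unchanged. In the incretin family (receptors such as GLP1R, their ligands and partners) 0 of 16 genes tested were called between ASO and saline in all nuclei by edgeR, 3 had an unadjusted p under 0.05 and DESeq2 called 0. The median log2 fold change was -0.10, beside -0.01 over all features. GIP, the ligand of GIPR, stood at 0.190 CPM in saline and 0.0876 CPM in ASO animals. In cyclic AMP signalling, the route of GIPR, 0 of 20 were called, 0 had an unadjusted p under 0.05, DESeq2 called 0 and the median was -0.22. In OTV animals 0 incretin genes were higher and 1 was lower: CALCRL, a receptor of adrenomedullin and CGRP (-0.96, SE 0.28, adjusted p = 0.0491). Of the cyclic AMP genes 1 was higher and 0 lower: the adenylyl cyclase ADCY6 (1.29, SE 0.22, adjusted p = 0.00638). The OTV medians were -0.09 and -0.02, beside -0.06 over all features.

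The partners of CD274 gave no call in ASO animals either, in a contrast that called 0.032% of all features. Of 11 checkpoint genes tested, 0 were called between ASO and saline by edgeR, 2 had an unadjusted p under 0.05, DESeq2 called 0 and the median log2 fold change was -0.17. Of 17 genes of interferon and JAK-STAT signalling, which controls PD-L1, 0 were called, 2 had an unadjusted p under 0.05, DESeq2 called 0 and the median was -0.11. In OTV animals 3 checkpoint genes were lower and 0 higher (median -0.54). These were CD80, a costimulatory ligand (-1.92, SE 0.29, adjusted p = 0.00460), VTCN1 (-1.51, SE 0.40, adjusted p = 0.0349) and BTLA (-2.60, SE 0.68, adjusted p = 0.0335). Of the interferon list 3 were higher and 1 was lower in OTV animals (median of the list 0.17). The higher genes were the kinase TYK2 (0.88, SE 0.16, adjusted p = 0.00963) and the transcription factors STAT3 (0.61, SE 0.16, adjusted p = 0.0377) and IRF2 (0.58, SE 0.14, adjusted p = 0.0241).

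Of 21 genes of the dystrophin and sarcoglycan complex tested, 0 were called between ASO and saline by edgeR, beside 0.032% of all features. Of the 21 genes, 4 had an unadjusted p under 0.05, DESeq2 called 0 and the median was -0.20. Among the partner subunits of SGCB, SGCA, SGCD and SGCE had ASO log2 fold changes of -0.09 (SE 0.41), 0.10 (SE 0.46) and 0.42 (SE 0.14). In OTV animals 0 were called higher and 1 lower, and the median was 0.04. Of the mitochondrially encoded genes, edgeR called 2 of 13 lower and 0 higher in ASO animals (median -5.32). All 13 lay below 0 there (highest -2.57), 13 had an unadjusted p under 0.05 and DESeq2 called 13. In OTV animals edgeR called 11 of 13 higher and 0 lower (median 2.89). There 13 had an unadjusted p under 0.05 and DESeq2 called 13.

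Genes next to the named members on the chromosome (up to 3 with a listed symbol on each side, in the order of the T2T-MFA8v1.1 gene table) gave no call in all nuclei between ASO and saline in edgeR, of those that passed the filter on low counts. Of all features, 0.032% were called there, and 0.394% in oligodendrocytes. EML2, the nearest listed gene on one side of GIPR, encodes a microtubule-associated protein. It had 202, 189 and 151 CPM in ASO and 109, 116 and 62.3 CPM in saline animals, with no overlap (log2 fold change 0.91, SE 0.24, adjusted p = 0.374). In oligodendrocytes, the type that carried GIPR, EML2 rose by 0.70 (SE 0.11, adjusted p = 0.0354), and no other neighbour of a member was called. PDCD1LG2, which encodes PD-L2 and lies next to CD274, had 7.75, 6.09 and 13.6 CPM in ASO and 2.72, 2.76 and 5.71 CPM in saline animals (1.28, SE 0.56, adjusted p = 0.525). Its value in oligodendrocytes was 2.58 (SE 0.53, adjusted p = 0.0817). LRRC66, next to SGCB, had 28.1, 34.2 and 32.4 CPM in ASO and 5.27, 16.7 and 9.61 CPM in saline animals (1.58, SE 0.37, adjusted p = 0.274). Overlapping transcripts and the strand of the reads were not examined, so UMIs of neighbouring genes cannot be assigned apart beyond the authors' counting.

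The genes most like each member were found by Pearson correlation of log2 CPM over 36 sums (9 animals by 4 cell types, which share animals and depth), among 11590 genes with a symbol. The sums include the ASO and saline animals whose difference chose the members, so a correlation of 1 member with another is not independent of that choice. For GIPR they were PIK3C3 (r = 0.80) and RGS13 (r = 0.80). For CD274 they were SGCB (r = 0.80) and ARL14EPL (r = 0.77), and for SGCB they were TMEM140 (r = 0.92) and ASB14 (r = 0.84). TMEM140 stood at 13.4 CPM ± 3.82 in ASO, 4.16 ± 0.595 in saline and 1.39 ± 0.354 in OTV animals. For FAM186A they were ATP2A1 (r = 0.69), a calcium pump, and SMIM4 (r = 0.62). ATP2A1 stood at 12.2 CPM ± 8.34 in saline animals, against 2.33 ± 0.0535 after ASO and 1.69 ± 0.268 after OTV. For ENSMFAG00000046424 they were SGCB (r = 0.78) and AP4B1 (r = 0.78), and for ENSMFAG00000046427 SGCB (r = 0.81) and LRRC66 (r = 0.79).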

How the data were processed

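The authors deposited raw UMI counts per feature and nucleus, with total counts, animal, cluster, cell type and a doublet score (a fraction from 0 to 1) per nucleus. Cell Ranger 6.1.2, Seurat 4 and the build GRCh38.p13 are named per the submitters' processing notes, while the features carry symbols or cynomolgus identifiers, and the sources used here do not give the annotation, the filters or the doublet caller. All deposited nuclei are marked singlets and were kept (smallest 1018 UMIs).

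For each animal, counts were added up over all nuclei, by cell type, or by MALAT1 bin, and given as CPM (counts per 1000000 UMIs). Sums were tested with edgeR 4.0.16 in R 4.3.3 (TMM, filterByExpr, robust quasi-likelihood fit over all 9 animals, Benjamini-Hochberg adjustment over all features tested, threshold 0.05). Contrasts between types and bins had animal as a block, with types of at least 20 nuclei per animal. In the fits of treatment within a type, GIPR was under the count filter in OPCs, myeloid cells and astrocytes, and FAM186A in myeloid cells and astrocytes. All 6 members passed it in every other main fit. In the alternative fits between types FAM186A had values in 5 settings, where the other members had 6. Exact tests added 0.5 UMI to each count and needed 5 UMIs in the 2 bins together. Shares of nuclei were taken after thinning to 1000 UMIs. Alternatives were DESeq2 1.42.0, other filters and scalings, thinning, other bins and leaving out animals.

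The test scripts were tested on simulated counts with known changes. In the contrast between MALAT1 bins the share of false calls there was above the threshold. Between ASO and saline in all nuclei 0% of 2-fold changes and 72.5% of 4-fold changes were recovered.

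The members and gene lists were chosen with earlier results of these data known. Named genes are the members, MALAT1, the 2 genes most like each member, up to 3 chromosomal neighbours on each side, and of each list up to 4 genes called per comparison. Some partner subunits of SGCB, GIP and GLP1R are named for their roles. Some called genes of the lists are not reported here. The gene table given holds no sequences, so none are printed. It matched 4 of 6 members by symbol.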

Additional observations from a re-analysis of the deposited data

How the results depend on the processing

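No paired analysis was possible because animal numbers follow accession order and pair no animals across groups. Between ASO and saline in all nuclei, 7 features were called; DESeq2's Wald test called 350, the fit of the 6 compared animals alone 0 (2079 features had an unadjusted p under 0.05 in the fit of 9 animals), and leaving out 1 animal at a time gave 3 to 18. In oligodendrocytes 79 were called, against 654 with DESeq2, 40 with the 6 animals alone, 20 after thinning to equal totals and 17 to 78 without 1 animal. Members called between OTV and saline were 3 in all nuclei (3 to 4 without 1 animal) and 4 in oligodendrocytes (3 to 4 without 1 animal, 2 after thinning to equal totals). Of 18 tests of a member between types in ASO animals 10 passed, beside 55.1% to 59% of all features in these 3 contrasts, and 6 to 8 passed without 1 animal, which leaves fewer animals in the contrast. For MALAT1 bins 1 member was called, 2 with no filter on low counts, 0 with bins within animals only and 0 to 1 without 1 animal. The exact test gave 0 calls in each setting.

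Of the values that changed sign, none was called in any setting where it did. Leaving out 1 animal at a time, the GIPR value for OTV ran from -0.12 to 0.41 in all nuclei (-0.10 without saline replicate 1) and from -0.023 to 0.63 in oligodendrocytes, and after thinning it was -0.40 in all nuclei. Myeloid cells against oligodendrocytes ran from -0.11 to 1.01 for FAM186A, from -0.15 to 0.078 for SGCB (-0.12 without ASO replicate 2, -0.068 with no filter, -0.0020 with the ASO animals alone) and from -0.33 to 0.00066 for ENSMFAG00000046424. Astrocytes ran from -0.12 to 0.47 for FAM186A and from -0.068 to 0.093 for SGCB. The values between MALAT1 bins ran from -0.062 to 0.11 for GIPR (-0.0077 with thinned MALAT1), and FAM186A gave -0.048 with 2 bins. For the count changes not explained by fewer animals or UMIs the cause was not tested. Depth limits FAM186A and, outside ASO animals, GIPR and both unnamed features, which rest on 0 to 147 UMIs for the unnamed features and 16 to 94 for GIPR per animal.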
